A study of Mus musculus with 16 samples.

Results

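Leukotriene and prostaglandin synthesis was followed through 8 genes, Pla2g4a, Alox5, Alox5ap, Lta4h, Ltc4s, Ptgs1, Ptgs2 and Ptges, in neutrophils sorted from mouse liver. The genes were chosen by their place in the pathway, with earlier results of these data known. They were found by matching the Ensembl identifiers of the count table to the GENCODE M21 names of the mm10 build. All 8 were present among the 54532 identifiers of the table, and all 8 passed the low-count filter that left 9851 genes for testing. The libraries came from 8 mixed bone marrow chimeras on the C57BL/6 background, numbered 2 to 9, each of which gave 1 Ifngr1_KO and 1 WT library, 16 in all. Ifngr1_KO libraries held neutrophils grown from CD45.2+ Ifngr1-/- marrow, which lacks the ligand-binding chain of the interferon gamma receptor, and WT libraries held neutrophils grown from CD45.1+ wild-type marrow. All animals shared the same history: wild-type hosts irradiated with about 1000 cGy, a graft of 50% of each marrow, 8 weeks of reconstitution, MC38 colon carcinoma cells placed in the flank, and an agonist antibody against CD40 (aCD40) 1 week later. Livers were taken 2 days after the antibody. No untreated mice and no other tissue were analysed here, so the levels below describe treated liver neutrophils only. The comparison asks which transcripts depend on the neutrophil's own interferon gamma receptor in a shared liver. Genotype cannot be told apart from the marrow donor, the CD45 form or the gate of the sort, which differed together between the groups. In bulk RNA, fewer cells of a type and less RNA per cell also cannot be told apart.

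Both lipid families start from arachidonic acid, which cytosolic phospholipase A2 (Pla2g4a) cuts from membrane phospholipids. In the leukotriene branch, 5-lipoxygenase (Alox5) works with its membrane partner FLAP (Alox5ap) to make leukotriene A4, which leukotriene A4 hydrolase (Lta4h) turns into leukotriene B4 and leukotriene C4 synthase (Ltc4s) turns into leukotriene C4. Leukotriene B4 is a strong neutrophil attractant that neutrophils themselves release, whereas leukotriene C4 is best known from mast cells, eosinophils and macrophages. In the prostaglandin branch, the constitutive cyclooxygenase Ptgs1 or the inducible cyclooxygenase Ptgs2 makes prostaglandin H2, and the microsomal synthase Ptges turns it into prostaglandin E2, a mediator of fever, pain and vascular leak.

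RefSeq promoter windows of the GRCm38.p6 build, the assembly that mm10 stands for, were found for 7 of the 8 genes. The 250 bases upstream of the annotated start are shown for Ptges, the only gene of the 8 that passed the test, for Ptgs2, which makes its substrate, and for Alox5, the first enzyme of the other branch. Sequences run 5′ to 3′ along the gene, and capitals mark GGGCGG, the GC box that binds factors of the Sp1 family. The Ptges window (minus strand, chr2:30903298-30903547) lies inside the longer GENCODE span of the gene. The Ptgs2 window is at chr1:150099781-150100030 on the plus strand, and the Alox5 window is at chr6:116461179-116461428 on the minus strand.
Ptges: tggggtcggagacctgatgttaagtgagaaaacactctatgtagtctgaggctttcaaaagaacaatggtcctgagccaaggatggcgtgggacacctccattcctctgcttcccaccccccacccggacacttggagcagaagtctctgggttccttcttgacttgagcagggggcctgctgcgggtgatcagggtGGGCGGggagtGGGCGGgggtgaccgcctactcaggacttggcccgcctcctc
Ptgs2: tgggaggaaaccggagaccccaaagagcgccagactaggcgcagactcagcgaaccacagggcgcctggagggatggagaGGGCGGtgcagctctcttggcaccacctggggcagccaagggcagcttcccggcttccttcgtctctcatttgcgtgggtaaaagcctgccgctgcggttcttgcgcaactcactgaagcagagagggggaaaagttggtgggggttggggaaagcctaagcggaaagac
Alox5: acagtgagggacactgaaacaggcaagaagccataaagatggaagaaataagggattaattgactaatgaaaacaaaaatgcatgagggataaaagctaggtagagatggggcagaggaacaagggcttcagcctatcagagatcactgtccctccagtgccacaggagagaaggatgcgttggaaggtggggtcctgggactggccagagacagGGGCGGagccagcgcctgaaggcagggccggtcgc

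The Ptges window held 2 GC boxes, beginning 53 and 42 bases before the start. The Ptgs2 window held 1, beginning 170 bases before the start, and the Alox5 window held 1, beginning 35 bases before it. GGGCGG occurred on either strand in 32.7% of 32851 windows of the same length, so a match is common. The interferon gamma element TTCNNNGAA (GAS), the interferon-stimulated element (GAAA, any 2 bases, GAAA), the cyclic AMP element TGACGTCA and the E-box CACGTG were searched on both strands and had no match in the windows of these 7 genes. Across all windows they occurred in 7.02%, 2.98%, 1.55% and 6.02%. TATAAA, present in 12.4% of all windows, occurred among these genes in 1 of the 2 Pla2g4a windows only, 200 bases before the start. These letters describe the windows alone and say nothing of binding there or of sites farther away.

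Library totals were 12.5 to 16.9 M estimated counts in Ifngr1_KO and 13.1 to 21.7 M in WT. Ifngr1 itself averaged 83.9 ± 29.5 CPM (counts scaled to the size of the library, with TMM factors) in Ifngr1_KO and 305 ± 46.6 CPM in WT (SD, n = 8 each), with no overlap between groups. The Ifngr1_KO library of mouse 7 stood apart. Its median correlation with the other libraries was 0.765, and its 10 leading genes held 22.8% of all counts, against 15.2% to 16.02% in the other Ifngr1_KO libraries. In mouse 7, genes with at most 1500 bp of exons had a median log2 difference between Ifngr1_KO and WT of 1.06, whereas genes with at least 4000 bp had one of -0.28. Alox5ap and Ltc4s are short genes by this measure, and the other 6 have 3884 bp or more. The mitochondrially encoded share of messenger RNA was 0.475% to 2.50% in Ifngr1_KO and 0.294% to 1.19% in WT. Values without mouse 7 are therefore given beside the results it touches. Neutrophil markers summed far above those of any other cell type in every library, and S100a8, S100a9, Csf3r, Cxcr2 and Ly6g were detected in all 16.

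Ptges was the gene of the 8 that fell in Ifngr1_KO neutrophils, to 68.4% of the WT level. It had 41.9, 31.1, 77.2, 61.8, 68.3, 78.9, 53.8 and 54.3 CPM in the Ifngr1_KO libraries of mice 2 to 9, against 56.7, 53.3, 105, 108, 79.7, 86.2, 93.0 and 93.8 CPM in the WT libraries of the same mice. The Ifngr1_KO library was the lower of the pair in 8 of 8 mice, although the groups overlapped, mice 2 and 3 being low in both genotypes. Means were 58.4 ± 16.6 CPM in Ifngr1_KO and 84.4 ± 20.3 CPM in WT (SD, n = 8 each), and the log2 fold change was -0.55 (SE 0.13, edgeR adjusted p = 0.0455). Within mice the log2 difference lay between -0.80 in mouse 5 and -0.13 in mouse 7. For scale, 4.93% of all genes tested were lower in Ifngr1_KO in all 8 mice. Ptges (ENSMUSG00000050737) lies at chr2:30889471-30929863 on the minus strand and has 3931 bp of exons. The overlapping pseudogene Gm13400 drew 16 counts over the 16 libraries against 17501 for Ptges.

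The call for Ptges was close to the threshold. It passed in 4 of 8 other settings with all mice and was lost without the mouse block (adjusted p = 0.203, edgeR), with scaling to library totals (0.0965), without a low-count filter (0.101) and on adding the mitochondrial share to the model (0.371). It was also lost on leaving out any mouse other than 7, with edgeR adjusted p between 0.0741 and 0.133, and was kept without mouse 7 (log2 fold change -0.61, edgeR adjusted p = 0.0125). The log2 fold change stayed between -0.61 and -0.44 over all these settings.

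**Figure D1:**
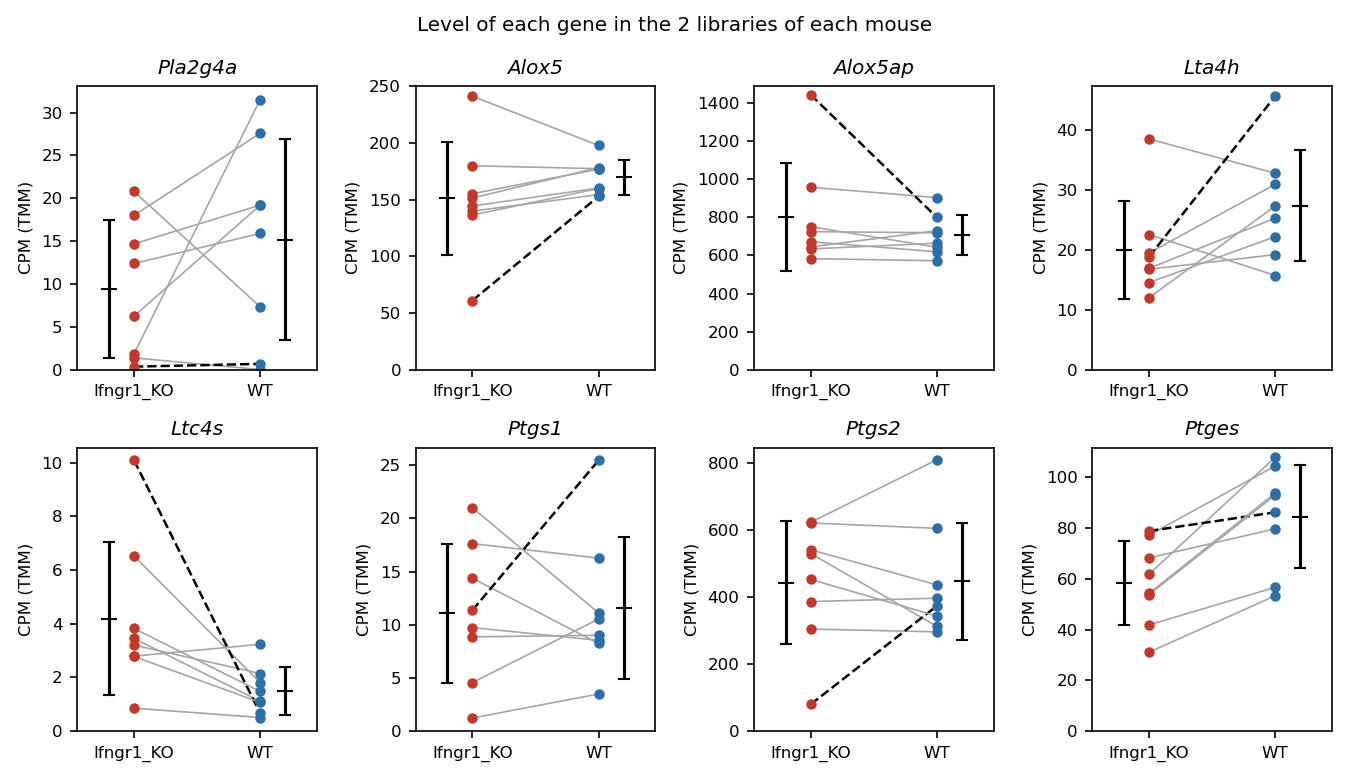
CPM of the 8 synthesis genes in every library, with lines joining the Ifngr1_KO library (left) to the WT library (right) of the same mouse, mouse 7 dashed, and bars of mean ± SD (n = 8 each) beside the points. The Ptges lines ran lower in Ifngr1_KO for all 8 mice, whereas the lines of every other gene ran in both directions.

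Among the 8 genes, 1 was called lower and none higher at an adjusted p under 0.05 by edgeR, a share of 12.5%. Over all 9851 genes tested, 2.8% were called in either direction, 2.32% lower and 0.477% higher in Ifngr1_KO. With 8 genes, 1 call gives no basis for telling this share from the background. Of the 8 fold changes, 6 were below 0 and 2, those of Alox5ap and Ltc4s, were above 0. Their median log2 fold change was -0.23, beside 0.046 over all genes tested. The other 7 genes had edgeR adjusted p between 0.204 and 0.886. Ltc4s had an unadjusted p of 0.0211 by edgeR and an adjusted p of 0.0297 by DESeq2. Of the 9851 genes tested, 1602 had an unadjusted p under 0.05 by edgeR, and DESeq2 called 1060.

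**Figure D2:**
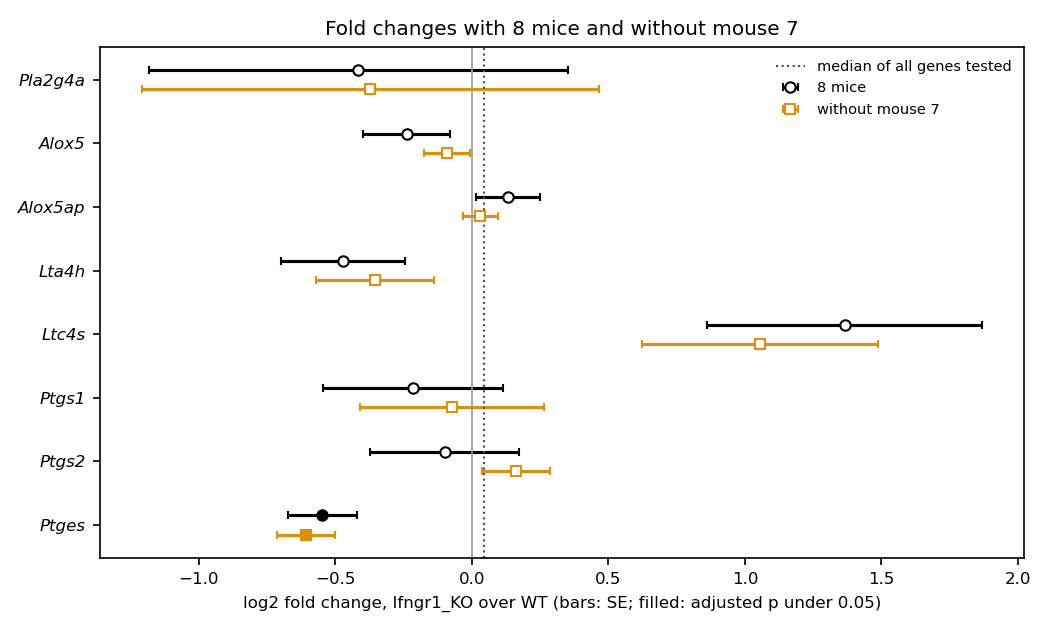
Log2 fold change of Ifngr1_KO over WT for each of the 8 genes, with bars of 1 SE from the edgeR fit, for 8 mice (circles) and without mouse 7 (squares), filled where the adjusted p was under 0.05. The dotted line is the median of all genes tested. Ptges lies at -0.55 with an SE of 0.13, while Pla2g4a and Ltc4s carry the widest bars, with SE of 0.77 and 0.50.

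Pla2g4a, the enzyme that frees arachidonic acid, was the most uneven of the 8 genes. In Ifngr1_KO it ranged from 0.339 CPM in mouse 7 to 20.8 CPM in mouse 8, with a median of 9.31 CPM, and in WT it ranged from 0 CPM in mouse 5 to 31.5 CPM in mouse 4, with a median of 17.5 CPM. The WT library of mouse 5 held 0 counts, which allows up to 0.157 CPM, while its Ifngr1_KO partner had 1.36 CPM. Groups overlapped throughout, and the coefficient of variation was 85.2% in Ifngr1_KO and 77.1% in WT. Means were 9.45 ± 8.05 CPM in Ifngr1_KO and 15.2 ± 11.7 CPM in WT (SD, n = 8 each). The log2 fold change was -0.42 (SE 0.77, edgeR adjusted p = 0.828). It was 0.042 without mouse 4, -0.85 without mouse 5, -0.37 without mouse 7 and -1.55 on adding the mitochondrial share to the model. A difference between genotypes was not detectable at this spread. Pla2g4a (ENSMUSG00000056220, chr1:149829618-149961290, minus strand) lies 11.7 Mb from Ptprc, the gene of the CD45 types by which the cells were sorted.

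Alox5, the 5-lipoxygenase gene, was present at a similar level in every WT library and varied more in Ifngr1_KO. It had a lowest value of 61.0, a median of 148 and a highest value of 241 CPM in Ifngr1_KO, against 153, 169 and 198 CPM in WT. The lowest Ifngr1_KO value was that of mouse 7 and the highest that of mouse 2, and 4 further Ifngr1_KO libraries lay between 136 and 151 CPM, just under the WT range. The coefficient of variation was 33.1% in Ifngr1_KO and 9.13% in WT, and without mouse 7 it was 22.5% in Ifngr1_KO and 8.74% in WT. This difference in spread was not tested. Means were 151 ± 50.0 CPM in Ifngr1_KO and 169.8 ± 15.5 CPM in WT (SD, n = 8 each), with a log2 fold change of -0.24 (SE 0.16, edgeR adjusted p = 0.492), which was -0.09 without mouse 7 and 0.099 on adding the mitochondrial share to the model. Alox5 (ENSMUSG00000025701) lies at chr6:116410077-116461178 on the minus strand.

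Alox5ap, which encodes the FLAP protein that presents arachidonic acid to 5-lipoxygenase, was the most abundant of the 8. It had a lowest value of 583, a median of 699 and a highest value of 1445 CPM in Ifngr1_KO, against 572, 692 and 905 CPM in WT. The Ifngr1_KO library of mouse 7, at 1445 CPM, lay far above the next highest Ifngr1_KO library at 959 CPM, and the remaining values overlapped. Means were 802 ± 284 CPM in Ifngr1_KO and 707 ± 107 CPM in WT (SD, n = 8 each), and without mouse 7 they were 710.2 ± 123 CPM in Ifngr1_KO and 694 ± 108 CPM in WT. The log2 fold change was 0.13 (SE 0.12, edgeR adjusted p = 0.610) and 0.031 without mouse 7, and -0.12 on adding the mitochondrial share to the model. Alox5ap (ENSMUSG00000060063) lies at chr5:149264767-149288153 on the plus strand. The library protocol does not mark strand, and the overlapping antisense gene Gm19719 drew 152 counts in all against 183033 for Alox5ap.

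Lta4h, the gene of the enzyme that completes leukotriene B4, had a lowest value of 12.01, a median of 17.9 and a highest value of 38.5 CPM in Ifngr1_KO, against 15.7, 26.3 and 45.7 CPM in WT. The ranges overlapped, and Ifngr1_KO was the lower of the pair in 6 of 8 mice. The means, 19.9 ± 8.14 CPM in Ifngr1_KO and 27.4 ± 9.34 CPM in WT (SD, n = 8 each), gave a log2 fold change of -0.47 (SE 0.23, edgeR adjusted p = 0.337). It was -0.35 without mouse 7 and -0.13 on adding the mitochondrial share to the model. Lta4h (ENSMUSG00000015889, chr10:93453411-93484875, plus strand) is on the chromosome of Ifngr1, 73.8 Mb from it.

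Ltc4s, the gene of the enzyme that makes leukotriene C4, was the rarest of the 8 by CPM in both genotypes and had the widest ratio of group means. It had 0.852, 6.53, 2.79, 3.20, 3.45, 10.1, 3.82 and 2.78 CPM in the Ifngr1_KO libraries of mice 2 to 9, against 0.505, 1.80, 3.23, 2.14, 1.11, 0.664, 1.48 and 1.07 CPM in the WT libraries of the same mice. Ifngr1_KO was the higher of the pair in 7 of 8 mice, mouse 4 being the exception, and the groups overlapped. These values rest on 15 to 119 counts per Ifngr1_KO library and 9 to 41 counts per WT library. Means were 4.19 ± 2.85 CPM in Ifngr1_KO and 1.5004 ± 0.890 CPM in WT (SD, n = 8 each), with a log2 fold change of 1.36 (SE 0.50, edgeR adjusted p = 0.204). Adding the mitochondrial share to the model gave 0.45 (edgeR adjusted p = 0.953). Without mouse 7 the log2 fold change was 1.06, with means of 3.35 ± 1.69 CPM in Ifngr1_KO and 1.62 ± 0.889 CPM in WT. Ltc4s (ENSMUSG00000020377) lies at chr11:50236461-50238616 on the minus strand, and the antisense gene Gm26542 over it drew 38 counts in all against 650 for Ltc4s.

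Mast cells, eosinophils and macrophages can carry Ltc4s, so their markers were read beside it. The 10 mast cell and basophil markers summed to a median of 9.09 CPM (range 2.06 to 15.1) in Ifngr1_KO and 7.33 CPM (0.209 to 23.9) in WT, with Ms4a2, Tpsb2 and Mcpt4 at 0 in all 16 libraries. Kit made up much of that sum and averaged 4.03 CPM (range 0 to 10.3) in Ifngr1_KO and 8.08 CPM (0 to 23.9) in WT. Of the detected markers in this list, only Kit had the higher mean in WT. The means of the basophil protease genes had the opposite direction, as that of Ltc4s did, but both genes lacked counts in many libraries. Prss34 averaged 3.18 CPM (range 0 to 11.2) in Ifngr1_KO and 0.446 CPM (0 to 3.07) in WT. Mcpt8 averaged 0.651 CPM (0 to 3.90, median 0.160) in Ifngr1_KO and 0.0516 CPM (0 to 0.209) in WT. Prss34 had counts in 9 of the 16 libraries and Mcpt8 in 7, so these means do not show a steady difference between genotypes. Gata2 averaged 0.381 CPM in Ifngr1_KO and was at 0 in all WT libraries, and Cpa3 was detected in 2 of the 16 libraries. The 8 eosinophil markers summed to a median of 18.9 CPM (12.6 to 30.6) in Ifngr1_KO and 14.4 CPM (6.82 to 26.7) in WT, with Epx at 0 in all 16. Of these, Ear2 averaged 7.89 CPM in Ifngr1_KO and 2.997 CPM in WT, whereas Il5ra averaged 0.478 CPM in Ifngr1_KO and 2.11 CPM in WT. The 12 macrophage and monocyte markers summed to 1420 CPM (399 to 1777) in Ifngr1_KO and 1610.2 CPM (1253 to 1912) in WT, nearly all of it Csf1r, while the Kupffer cell marker Vsig4 was at 0 in all 16. Adgre1 averaged 36.0 CPM in Ifngr1_KO and 76.5 CPM in WT, whereas Cx3cr1, Cd5l, Marco, Ccr2 and Timd4 had the higher mean in Ifngr1_KO. The 10 platelet and megakaryocyte markers summed to 28.5 CPM (9.58 to 46.6) in Ifngr1_KO and 36.6 CPM (28.5 to 46.6) in WT. The mouse 7 Ifngr1_KO library held the highest mast cell and eosinophil sums and the lowest macrophage and platelet sums of its group. The part of these cells in the Ltc4s values was not tested.

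The transcripts of the enzymes that use leukotriene A4 were also read as the ratio of Ltc4s to Lta4h within each library. It does not depend on scaling between libraries, and it does not measure the lipids made. This ratio rose in Ifngr1_KO. Its log2 value averaged -2.45 ± 1.37 in Ifngr1_KO and -4.31 ± 1.08 in WT (SD, n = 8 each), which correspond to geometric mean ratios of 0.183 in Ifngr1_KO and 0.0505 in WT. The difference of 1.86 ± 1.49 on the log2 scale was positive in 8 of 8 mice. The exact sign-flip test over mice, two-sided, gave p = 0.0078, which is the smallest that 8 pairs allow, and 0.0234 after adjustment over 3 ratios. The members were chosen with earlier results of these data known, which this adjustment does not take into account. Without mouse 7 the difference was 1.39. Since all 8 differences share a sign, any 7 of them give the smallest p that 7 pairs allow, so leaving out a mouse bears on the size alone. Because Ltc4s is short and Lta4h long, each was also centred on tested genes of similar exonic length, an alternative chosen after seeing the data, and the difference was then 1.69 ± 1.13, again positive in 8 of 8 mice (exact sign-flip test, adjusted p = 0.0234). The groups still overlapped, since the Ifngr1_KO ratio of mouse 2, at 0.0228, lay below the WT ratio of 6 mice. Neither gene alone passed the test, so the ratio does not show which of them moved. The fold changes of both genes were smaller with the mitochondrial share in the model, as given above, and the part of that share in the ratio was not tested.

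**Figure D3:**
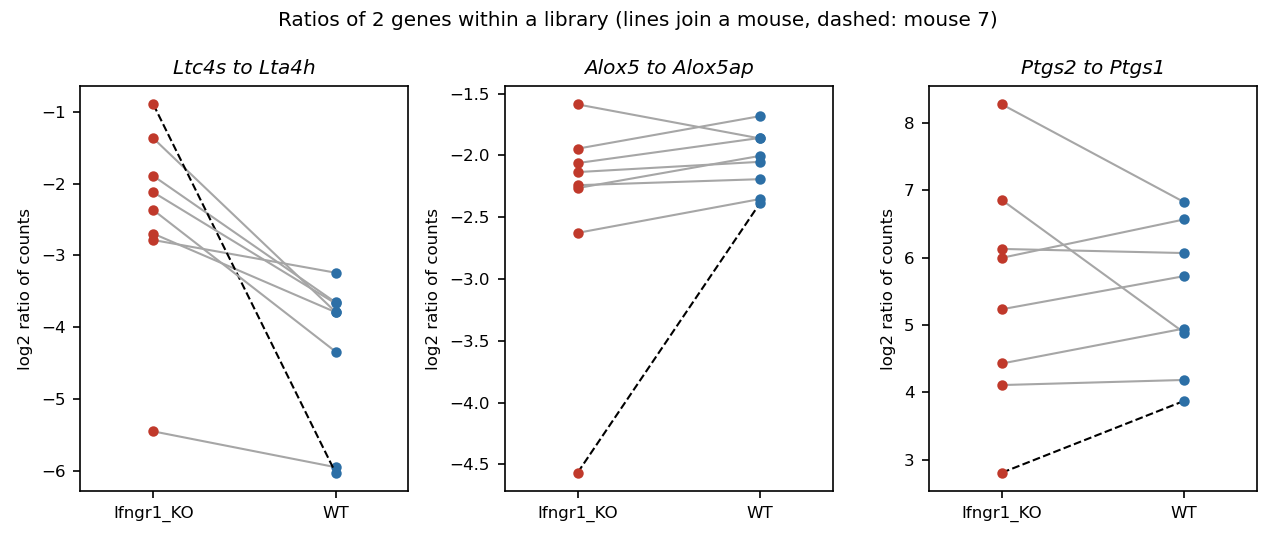
Log2 ratio of counts within each library for 3 pairs of genes, with lines joining the Ifngr1_KO library (left) to the WT library (right) of a mouse, mouse 7 dashed. Ltc4s to Lta4h was higher in Ifngr1_KO in all 8 mice, while Ptgs2 to Ptgs1 was higher in 3 and lower in 5.

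The ratio of Alox5 to its partner Alox5ap averaged -2.43 ± 0.91 in Ifngr1_KO and -2.05 ± 0.25 in WT on the log2 scale (SD, n = 8 each). The difference of -0.38 ± 0.75 was negative in 7 of 8 mice and did not pass the same exact test (p = 0.0781, adjusted p = 0.117). Without mouse 7 the difference was -0.12, since that mouse had a log2 ratio of -4.57 in Ifngr1_KO and -2.39 in WT. The other 7 Ifngr1_KO libraries lay between -2.63 and -1.59. Leaving out mouse 2, the exception in direction, gave a difference of -0.47, and the agreement of the 7 mice left then fixes the exact p at the smallest 7 pairs allow (adjusted p = 0.0234).

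Ptgs2, the inducible cyclooxygenase, was expressed in every library far above its constitutive counterpart. It had a lowest value of 80.0, a median of 492 and a highest value of 624 CPM in Ifngr1_KO, against 296, 385 and 811 CPM in WT. The lowest value was again that of the mouse 7 Ifngr1_KO library, and the other 7 lay within the WT range. Means were 443 ± 184 CPM in Ifngr1_KO and 447 ± 176 CPM in WT (SD, n = 8 each), with a log2 fold change of -0.10 (SE 0.27, edgeR adjusted p = 0.886). Without mouse 7 the log2 fold change was 0.16, and scaling to library totals (0.019), limma-voom (0.11) and adding the mitochondrial share (0.63) also turned its sign. Ptgs2 (ENSMUSG00000032487, chr1:150100031-150108227, plus strand) lies 138741 bp from Pla2g4a and 11.9 Mb from Ptprc.

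Ptgs1, the constitutive cyclooxygenase that platelets use for thromboxane, had a lowest value of 1.22, a median of 10.5 and a highest value of 20.99 CPM in Ifngr1_KO, against 3.48, 9.77 and 25.4 CPM in WT. Ifngr1_KO was higher in 4 mice and lower in 4. The part of the platelet transcripts given above in these values was not tested. Means were 11.1 ± 6.53 CPM in Ifngr1_KO and 11.6 ± 6.64 CPM in WT (SD, n = 8 each), and the log2 fold change was -0.22 (SE 0.33, edgeR adjusted p = 0.788). Without mouse 7 the means were 11.05 ± 7.05 CPM in Ifngr1_KO and 9.59 ± 3.84 CPM in WT (SD, n = 7 each) and the fitted log2 fold change was -0.072, while limma-voom with all mice gave 0.23. Ptgs1 (ENSMUSG00000047250) lies at chr2:36230426-36252272 on the plus strand, 5.30 Mb from Ptges. The geometric mean ratio of Ptgs2 to Ptgs1 was 44.6 in Ifngr1_KO and 41.8 in WT, and the log2 difference was 0.09 ± 1.06 (same exact test, p = 0.867 before and after adjustment), or 0.26 without mouse 7. Single libraries ranged widely, from 7.02 in mouse 7 to 309 in mouse 6 in Ifngr1_KO and from 14.7 in mouse 7 to 113 in mouse 6 in WT. Mouse 7 was thus the lowest and mouse 6 the highest in both genotypes.

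Compared per length, as CPM per kb of annotated exons, the genes fell into an order that was alike at the top in both genotypes. Alox5ap was highest, with 565 ± 199.9 CPM per kb in Ifngr1_KO and 498 ± 75.3 in WT (SD, n = 8 each). Ptgs2 followed with 96.7 ± 40.1 CPM per kb in Ifngr1_KO and 97.6 ± 38.4 in WT, then Alox5 with 36.8 ± 12.2 in Ifngr1_KO and 41.3 ± 3.78 in WT, and Ptges with 14.9 ± 4.23 in Ifngr1_KO and 21.5 ± 5.16 in WT. Neighbours were set by the order of the means of these same libraries, so the tests show only how steadily that order held. Neighbours among these 4 differed in exact two-sided sign-flip tests over 8 libraries in each genotype. Adjusted p over the 14 neighbour pairs was 0.0137, from the smallest p that 8 libraries allow (0.0078). The exception was Alox5 over Ptges in Ifngr1_KO, which held in 7 of 8 libraries (adjusted p = 0.0243). The pair formed by the abundant FLAP transcript and the scarcer 5-lipoxygenase transcript was therefore ordered alike in all 16 libraries.

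The lower 4 genes were all under 5 CPM per kb on average. Ltc4s had 4.13 ± 2.81 CPM per kb in Ifngr1_KO and 1.48 ± 0.88 in WT, Lta4h had 3.27 ± 1.33 in Ifngr1_KO and 4.49 ± 1.53 in WT, Ptgs1 had 2.85 ± 1.68 in Ifngr1_KO and 2.98 ± 1.71 in WT, and Pla2g4a had 1.48 ± 1.26 in Ifngr1_KO and 2.37 ± 1.83 in WT. By these means, Ltc4s was thus the fifth of the 8 in Ifngr1_KO and the lowest in WT. On the log2 scale of the test, Pla2g4a averaged below Ltc4s in WT (difference -0.65), though it was above it in 5 of 8 libraries. In Ifngr1_KO, neighbours in this lower group did not differ beyond their spread (exact sign-flip tests, adjusted p between 0.186 and 0.797), although Ptges stood above Ltc4s in 8 of 8 libraries. In WT, Ptges over Lta4h and Lta4h over Ptgs1 held in 8 of 8 libraries (adjusted p = 0.0137, exact sign-flip test), whereas Ptgs1 and Pla2g4a (0.520) and Pla2g4a and Ltc4s (0.797) did not differ beyond their spread. The position of Ltc4s above Lta4h in Ifngr1_KO turned round when the longest annotated transcript replaced the union of exons.

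**Figure D4:**
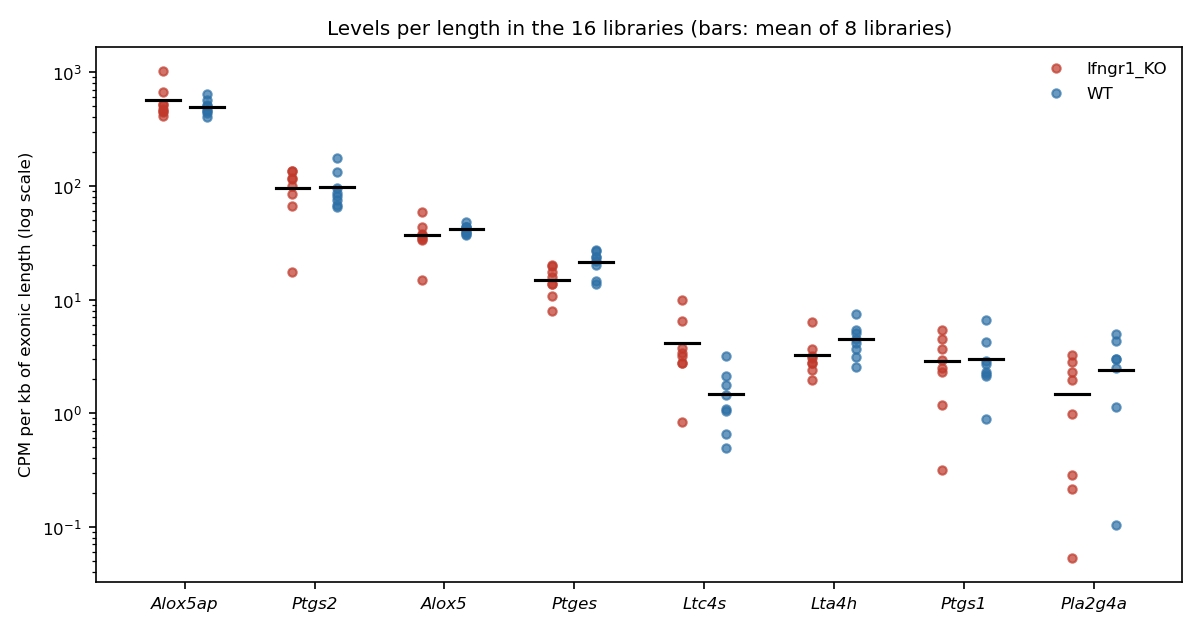
Level of each gene as CPM per kb of exons on a log axis, with points for single libraries and bars for the mean, Ifngr1_KO left of WT; the WT library with 0 counts of Pla2g4a has no point on the log axis. Alox5ap stands highest, at 565 CPM per kb in Ifngr1_KO and 498 in WT on average, Ptgs2 and Alox5 follow, and Ltc4s, Lta4h, Ptgs1 and Pla2g4a lie under 5 on average.

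Genes whose log2 CPM followed each member most closely over the 16 libraries were sought among the 4441 genes whose log2 CPM averaged 3 or more. Predicted genes were skipped when the closest genes were picked. The libraries share mice in pairs, and length and depth effects are common to all genes of a library. Both genotypes were pooled, so a difference between genotypes that 2 genes share also enters their correlation. The correlations therefore describe these libraries only. Ptges was followed by Pik3r6, a regulatory subunit of PI3-kinase gamma (Pearson r = 0.90, Spearman rho = 0.83), the complement gene Cfb (r = 0.86, rho = 0.88) and the actin gene Actb (r = 0.85, rho = 0.84). These stayed at r = 0.92, 0.90 and 0.84 without mouse 7, and at 0.81, 0.76 and 0.85 without the Ifngr1_KO libraries of mice 2 and 3, the farthest from the Ptges median. Alox5ap was followed by the S100 protein genes S100a6 (r = 0.98, rho = 0.97) and S100a13 (r = 0.96, rho = 0.90) and by Ndufa8 (r = 0.98, rho = 0.94), a subunit of respiratory complex I, with r of at least 0.90 for all 3 without mouse 7.

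For Alox5 and Ptgs2 the correlations with the closest genes were lower without mouse 7. Hnrnpk, Tmem43 and Pygl followed Alox5 with r of 0.92, 0.90 and 0.90, which were 0.62, 0.62 and 0.53 without mouse 7. Slu7, Chrm3 and M6pr followed Ptgs2 with r of 0.91, 0.89 and 0.89, which were 0.68, 0.58 and 0.59 without mouse 7. Lta4h was followed by Cdk2 (r = 0.82, rho = 0.79), Cep170 (r = 0.70) and the granule gene Ltf (r = 0.69), and Ptgs1 by Eef1g (r = 0.80, rho = 0.84), Swi5 (r = 0.73) and Mdh2 (r = 0.69). Pla2g4a and Ltc4s were below the level needed. Among the members themselves, Alox5 and Ptgs2 had r = 0.79 over 16 libraries but 0.26 without mouse 7, Alox5ap and Ptgs2 had r = -0.84 and -0.54, and Alox5 and Ltc4s had r = -0.70 with and without it.

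The other genes of the pathway were read in 4 lists of 107 genes, of which 61 passed the filter. Of these 61, 4 were called lower and 1 higher by edgeR, which is 8.2% beside the 2.8% of all genes tested, and their median log2 fold change was 0.076. The lists were chosen with earlier results of these data known, so the counts are a description. The 46 genes not tested include Alox15, Ptgds, Hpgds and Cysltr1, among the best known enzymes and receptors of mast cells, eosinophils and macrophages.

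The list for release, activation and reacylation of arachidonic acid had 12 tested genes. Of these, 2 fell and 10 did not pass, with a median log2 fold change of -0.27. The list also holds Pla2g7, which acts on platelet-activating factor. Pla2g7, the secreted hydrolase of platelet-activating factor, had 1100.3 ± 228 CPM in Ifngr1_KO and 1771 ± 184 CPM in WT (SD, n = 8 each), a log2 fold change of -0.71 (SE 0.11, edgeR adjusted p = 0.00543) and no overlap, with a highest Ifngr1_KO value of 1327 CPM and a lowest WT value of 1513 CPM. Pla2g16, a phospholipase A2 first known from adipose tissue, had 3.44 ± 1.81 CPM in Ifngr1_KO and 35.7 ± 10.6 CPM in WT, a log2 fold change of -3.48 (SE 0.36, edgeR adjusted p = 0.00027) and no overlap. Over all genes tested, 1.48% were lower in Ifngr1_KO without overlap. The Pla2g7 call was lost on adding the mitochondrial share to the model (edgeR adjusted p = 0.245). The reacylating enzymes Lpcat2, with 544 ± 142 CPM in Ifngr1_KO and 623 ± 200.4 CPM in WT, and Mboat7, with 236 ± 89.0 CPM in Ifngr1_KO and 227 ± 103 CPM in WT, had edgeR adjusted p of 0.437 and 0.659.

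Among 21 further eicosanoid enzymes tested, 1 fell, 1 rose and 19 did not pass, with a median log2 fold change of 0.16. Mgst1, a microsomal glutathione transferase of the same protein family as Ltc4s, Alox5ap and Ptges, had 256 ± 108 CPM in Ifngr1_KO and 423 ± 39.1 CPM in WT, a log2 fold change of -0.81 (SE 0.17, edgeR adjusted p = 0.0290). It was lower in 7 of 8 mice; the exception was mouse 7, whose Ifngr1_KO library had 518 CPM beside 183 to 251 CPM in the others. Without mouse 7 its log2 fold change was -0.98 (edgeR adjusted p = 3.26e-05), and leaving out any other mouse lost the call, with adjusted p of up to 0.0908. Gpx4, a peroxidase that reduces lipid hydroperoxides, had 389 ± 126 CPM in Ifngr1_KO and 234 ± 41.5 CPM in WT, a log2 fold change of 0.70 (SE 0.13, edgeR adjusted p = 0.0158), and was higher in 8 of 8 mice. Over all genes tested, 2.76% were higher in Ifngr1_KO in all 8 mice. Without mouse 7 the Gpx4 log2 fold change was 0.61 (edgeR adjusted p = 0.00927). Its call was lost without mouse 8 or mouse 9 (edgeR adjusted p = 0.057 for each) and on adding the mitochondrial share to the model (log2 fold change 0.34, adjusted p = 0.433).

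The 2 most abundant uncalled genes of this list by length were Cyp4f18 and Ggt5. Cyp4f18, which oxidises leukotriene B4 in mouse neutrophils, had 829 ± 102 CPM in Ifngr1_KO and 673 ± 128 CPM in WT, was higher in 7 of 8 mice and had an edgeR adjusted p of 0.117, but passed with library totals (0.0248), DESeq2 (0.0103) and limma-voom (0.0436). Ggt5, which trims leukotriene C4 to leukotriene D4, had 106 ± 26.3 CPM in Ifngr1_KO and 98.4 ± 23.5 CPM in WT, with an edgeR adjusted p of 0.748.

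Among 8 tested receptors for these lipids and related mediators, 1 fell and 7 did not pass, with a median log2 fold change of -0.27. Gpr132, a receptor for oxidised fatty acids, had 72.2 ± 12.2 CPM in Ifngr1_KO and 101 ± 15.7 CPM in WT, a log2 fold change of -0.48 (SE 0.10, edgeR adjusted p = 0.0226), and was lower in 8 of 8 mice. Its call was lost without the mouse block (edgeR adjusted p = 0.0742), with library totals (0.0847), without a filter (0.132), with the mitochondrial share (0.373) and on leaving out any mouse other than 7 (up to 0.0907). Ltb4r1, the high-affinity leukotriene B4 receptor, had 60.1 ± 35.9 CPM in Ifngr1_KO and 41.4 ± 32.0 CPM in WT, was higher in 7 of 8 mice and had an adjusted p of 0.165 by edgeR and 0.0397 by DESeq2. Fpr2, a formyl peptide and lipoxin receptor, had 350.2 ± 165 CPM in Ifngr1_KO and 435 ± 59.3 CPM in WT, with an edgeR adjusted p of 0.289 that became 0.00689 without mouse 7 (log2 fold change -0.59), and 0.0352 by limma-voom. Of 20 regulators of 5-lipoxygenase and cyclooxygenase 2, 0 were called by edgeR or limma-voom and 1 by DESeq2, and 5 had an unadjusted p under 0.05 by edgeR. Over all 9851 genes tested, DESeq2 called 1060, and 1602 had an unadjusted p under 0.05 by edgeR. With 20 genes, these counts give no basis for telling the list from that background. Cotl1, a protein that binds 5-lipoxygenase, had 594 ± 123 CPM in Ifngr1_KO and 630.3 ± 146 CPM in WT, and Zfp36, which promotes decay of Ptgs2 messenger RNA, had 6614 ± 997 CPM in Ifngr1_KO and 6911 ± 1133 CPM in WT.

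**Figure D5:**
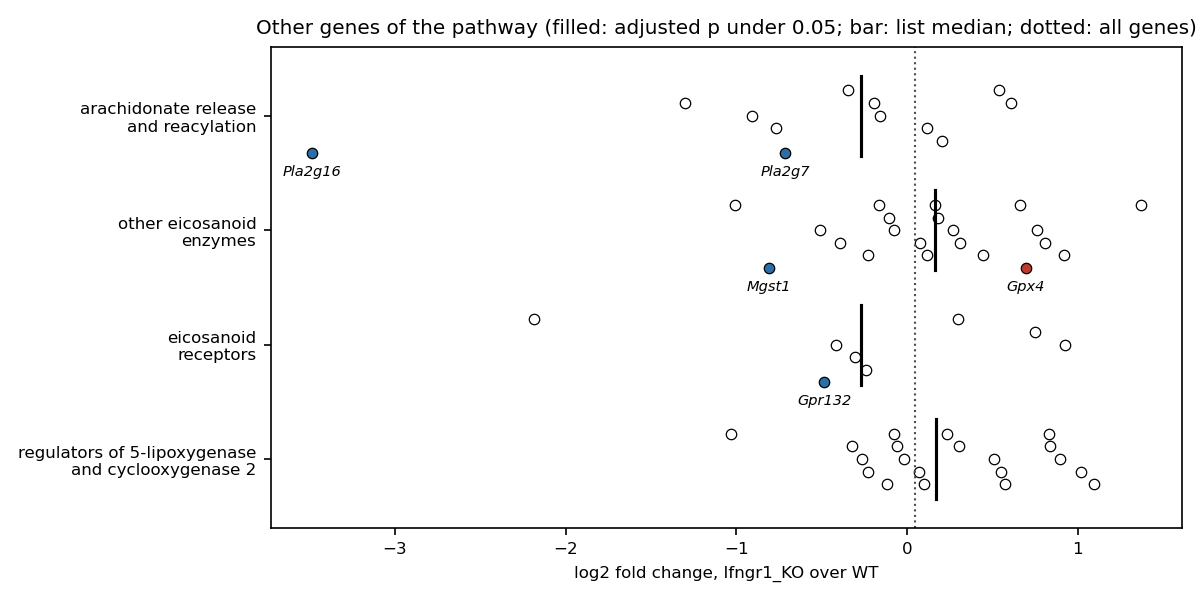
Log2 fold change of Ifngr1_KO over WT for the 61 tested genes of the 4 lists, with filled points for genes called by edgeR, bars at list medians and a dotted line at the median of all genes tested. Pla2g16 lies farthest out at -3.48, and Gpx4 is the called gene on the higher side.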

How the data were processed

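Liver neutrophil RNA was measured by RNA-seq in 16 libraries, 1 Ifngr1_KO and 1 WT from each of 8 mice. Per the labels, 1 ng of RNA was primed with oligo-dT by the SMART-Seq v4 kit, amplified for 13 cycles and prepared with Nextera XT, which marks neither strand nor molecules, so counts include PCR copies. The deposited table holds estimated counts per Ensembl gene, unscaled between libraries. Salmon 0.14.2, DESeq2 1.22.1 and mm10 are named in the submitters' processing notes, and their settings were not given in the sources used here. Since Salmon estimates are fractional, the deposited values were taken to be estimated counts that the authors had rounded, and were used as they stand.

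Sample titles gave the groups and mouse numbers. R 4.3.3 and edgeR 4.0.16 were used for filterByExpr by group, TMM scaling and the robust quasi-likelihood F-test, in which mouse was a block, and p-values were adjusted by Benjamini-Hochberg over 9851 genes (threshold 0.05). The tested genes held 99.74% of counts. The SE was taken as the absolute log2 fold change over the square root of F. Ratios used counts with 0.5 added to each, and levels per length used the union of GENCODE M21 exons. The limit that a count of 0 allows is 3 counts, for counting error only. The series' design text states that both libraries of a number come from 1 mouse; deviations from group means correlated at 0.138 on average within mice (0.0256 to 0.32) and -0.0182 between mice.

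Alternatives were no block, DESeq2 size factors or library totals, other filters, DESeq2 1.42.0, limma-voom (limma 3.58.1) with quality weights, the mitochondrial share as a covariate, leaving out each mouse, another prior count and other gene lengths. The members and lists were chosen with earlier results of these data known. Named genes were the 8 members, every called gene of each list with its 2 most abundant uncalled genes per kb, and the 3 genes most correlated with each member. Predicted genes were left out of these correlated genes. Prxl2b was matched under its M21 name. Markers of 8 cell types were summed per library. Hepatocyte markers summed to a median of 630 CPM (468 to 1721) in Ifngr1_KO and 831 CPM (404 to 1793) in WT, neutrophil markers to 42407 CPM (28210 to 83557) in Ifngr1_KO and 45500.5 CPM (33157 to 55271) in WT, lymphocyte markers to 19.8 CPM (12.5 to 54.3) in Ifngr1_KO and 23.8 CPM (5.85 to 28.3) in WT, and endothelial and stellate markers to 8.66 CPM (5.17 to 17.5) in Ifngr1_KO and 10.7 CPM (5.72 to 17.9) in WT.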

Additional observations from a re-analysis of the deposited data

Results flagged for a closer look

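Single libraries lay far from the other 7 of their group, by Dixon's ratio of gap to range above 0.526, in 10 of 48 groups of values checked; chance marks about 1 in 20. In the Ifngr1_KO library of mouse 7, Alox5ap was at 1445 CPM (583 to 959 in the others), Mgst1 at 518 CPM (183 to 251), Fpr2 at 729 CPM (198 to 368) and Pla2g7 at 603 CPM (1010.0 to 1327), and its 10 most abundant genes took 22.8% of counts (15.2% to 16.02%). In the Ifngr1_KO libraries of other mice, Lta4h was at 38.5 CPM in mouse 2 (12.01 to 22.5 in the others) and Ggt5 at 163 CPM in mouse 5 (79.7 to 116). In WT libraries, Pla2g16 was at 59.1 CPM in mouse 6 (24.6 to 40.0 in the others), Cyp4f18 at 949 CPM in mouse 3 (552 to 727), and the mitochondrial share at 1.19% in mouse 4 (0.294% to 0.660%). Of these 10, 5 belong to the Ifngr1_KO library of mouse 7.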

How the results depend on the processing

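Without the replicate block, that is without pairing by mouse, 268 genes were called (216 lower, 52 higher) and Ptges lost its call (-0.53, edgeR adjusted p = 0.203), as did Gpr132, so that 0 receptors were called; the Ltc4s to Lta4h ratio kept its call (adjusted p = 0.0322, permutation test) and no other named call changed. DESeq2 called 1060 genes (572 lower, 488 higher), limma-voom 597 (425, 172) and the fit with the mitochondrial share 93 (85, 8), against 276 (229, 47) by edgeR. Higher calls numbered 102 with library totals, which moved the all-gene median to 0.157 (log2), and 31 without a filter. Genes called in the list for arachidonic acid release were 4 by DESeq2 and 1 with the mitochondrial share. Other enzymes called were 4 with library totals, DESeq2 or limma-voom and 1 with the mitochondrial share. Receptors called were 4 by DESeq2, 3 by limma-voom and 0 with library totals, without a filter or with the mitochondrial share. Ptges lost its call with library totals (-0.44), no filter (-0.57) and the mitochondrial share (-0.56), and Ltc4s gained one by DESeq2 (1.38). Signs turned with the mitochondrial share for Alox5 (0.099), Alox5ap (-0.12), Ptgs2 (0.63) and Ggt5 (-0.12), with limma-voom for Ptgs1 (0.23), Ptgs2 (0.11) and Cotl1 (0.0029), and with library totals for Ptgs2 (0.019), Cotl1 (0.035) and Zfp36 (0.050). With the longest transcript, Ltc4s over Lta4h in Ifngr1_KO became -0.28. The causes were not tested. Leaving out each mouse gave 163 to 412 calls (144 to 334 lower, 19 to 78 higher). Of the lists, it gave 2 to 3 genes of the release list, 0 to 2 other enzymes and 0 to 2 receptors. Log2 fold changes then spanned -0.61 to -0.51 for Ptges, -0.22 to 0.16 for Ptgs2, -0.85 to 0.042 for Pla2g4a, -0.30 to -0.091 for Alox5, 0.031 to 0.18 for Alox5ap, -0.61 to -0.35 for Lta4h, 1.06 to 1.60 for Ltc4s, -0.38 to -0.042 for Ptgs1 and -0.13 to 0.0016 for Cotl1. The ratios spanned 1.39 to 2.06 for Ltc4s to Lta4h, -0.47 to -0.12 for Alox5 to Alox5ap and -0.17 to 0.26 for Ptgs2 to Ptgs1, the last below 0 without mouse 4 (-0.17) or mouse 6 (-0.099). Counts were fewest for Ltc4s, with 9 to 119 per library, which limits its precision.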
